A study of Mus musculus with 10 samples.

Results

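Classical cadherins are the calcium-dependent adhesion proteins of cell junctions, and 10 genes of this family and its close relatives are described here in the mouse cerebral cortex at postnatal day 8. They are the type I genes Cdh2 and Cdh4, the 7 type II genes Cdh6, Cdh8, Cdh9, Cdh10, Cdh11, Cdh12 and Cdh20, and Cdh13, whose protein is held in the membrane by a GPI anchor. The 10 were chosen by family membership and on their expression in cortical areas and layers, with their knockout against wild-type values already known, among them a lower Cdh4. They are 10 of the 30935 genes of the count table, and all 10 were among the 15488 genes that passed the filter on low counts. RNA was sequenced from 5 wild-type mice (Rbfox1 +/+) and 5 mice carrying the HAR.505 deletion of Rbfox1 on both alleles (Rbfox1 ΔHAR.505/ΔHAR.505), here called knockout. All mice were 8 days old, no treatment is stated, and the labels used here give neither strain nor sex. Libraries carry the replicate numbers 2, 4, 5, 6 and 7 in wild type and 1, 3, 5, 6 and 8 in knockout. Library totals ran from 16479594 to 22391943 counts, and each cadherin gene had between 424 and 4989 counts in every library. At the mean count of each gene over the 10 libraries, the counting error alone was 1.59% to 4.28% of the level. The cortical label was checked on 13 markers of deep layer cortical neurons, whose summed level was 943 to 992 CPM over wild-type libraries and 964 to 1030 CPM over knockout libraries, with 0 of them at 0 in any library. The sum does not measure how much other tissue was present, and Foxp2 of this list is also among the striatal markers used below. CPM are counts scaled to the same library size for every library.

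Cadherins of one cell bind cadherins of the next through their outermost domain, where a tryptophan near the start of the mature protein slots into a pocket of the partner. Type I proteins use 1 such tryptophan and type II proteins 2. Inside the cell both types hold p120 catenin and beta-catenin, and beta-catenin is part of the link from the junction to actin. In the developing cortex, individual cadherins mark areas, layers and connected groups of neurons, and they take part in sorting cells, guiding axons and building synapses. T-cadherin, the product of Cdh13, has no cytoplasmic tail.

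The sequences that separate these classes are the first 10 codons of the mature protein. They are shown for 9 genes, 5′ to 3′, from the coding strand of the reference transcripts (GENCODE M21, GRCm38), with tryptophan codons in capitals. The start was placed directly after a basic cleavage motif, searched with a tryptophan required at position 2, or for Cdh13 with isoleucine and valine from position 2. The tryptophan at position 2 was therefore part of the search, and that at position 4 was not.
Cdh4: gacTGGgtcatcccacccatcaacgttccc
Cdh6: agtTGGatgTGGaatcagttcttcctcctg
Cdh8: ggcTGGgttTGGaatcaaatgtttgtcctg
Cdh9: ggcTGGatgTGGaatcagttcttcctctta
Cdh10: ggcTGGatgTGGaatcagtttttcttgctg
Cdh11: ggcTGGgtcTGGaaccaattctttgtgata
Cdh12: ggcTGGgtaTGGaatcagttttttgtgctg
Cdh20: agcTGGgttTGGaatcagttttttgtcctg
Cdh13: tccattgtggtgtcccccatcttgatccca

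Beyond the position used in the search, all 7 type II genes carried a tryptophan codon at position 4 and Cdh4 did not. Cdh13 carried 0 in these 10 codons. Position 1 of the mature protein was residue 167 of the Cdh4 precursor and residues 53 to 62 of the type II precursors. Translated from the same transcripts, the precursors held between 714 residues (Cdh13) and 913 residues (Cdh4). Identity of the aligned residues was 67.6% between Cdh4 and Cdh2, its closest relative among the 10. Among the 21 type II pairs it ran from 56.4% to 73.6%, the highest being Cdh6 with Cdh10, and Cdh13 shared 44.8% with Cdh2 and 34.8% with Cdh9. In gene order, Cdh6, Cdh9, Cdh10 and Cdh12 follow each other without another protein-coding gene between them, and Cdh8 lies next to Cdh11.

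Paralog levels were compared as CPM per kilobase of exon, since longer transcripts collect more reads. Cdh13 was the highest of the 10, with 53.9 ± 3.58 CPM per kilobase (SD, n = 10 libraries of both genotypes), and Cdh2, the N-cadherin gene of neural progenitors and synapses, followed with 43.1 ± 2.11. The library ranges of these genes did not overlap, at 48.6 to 59.9 for Cdh13 and 40.0 to 45.5 for Cdh2. Cdh11 (19.7 ± 1.67), Cdh8 (16.9 ± 1.92) and Cdh10 (15.0 ± 0.671) formed a middle tier, in which neighbours overlapped: Cdh11 was above Cdh8 in 9 of 10 libraries and Cdh8 above Cdh10 in 8 of 10.

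The lower tier held Cdh6 (9.26 ± 1.45 CPM per kilobase), Cdh4 (9.09 ± 2.16), Cdh9 (8.57 ± 0.824), Cdh20 (7.40 ± 1.04) and Cdh12 (6.50 ± 0.657), and the ranges of all neighbours in this tier overlapped. Cdh10 stood above Cdh6 in 10 of 10 libraries. The highest gene exceeded the lowest by 8.28-fold. In wild type alone Cdh4 was at 10.9 ± 0.411 and Cdh6 at 9.48 ± 0.491 CPM per kilobase, while in knockout Cdh4 was at 7.26 ± 1.40 and Cdh6 at 9.05 ± 2.08 (SD, n = 5 each). The order depends on the gene length used. Divided by coding length, Cdh8 (51.1) passed Cdh11 (46.4) and Cdh6 (31.9) passed Cdh10 (22.5). With exons of all transcripts, retained introns included, Cdh10 came last (5.29) and Cdh2 (26.5) stood above Cdh13 (18.1).

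**Figure D1:**
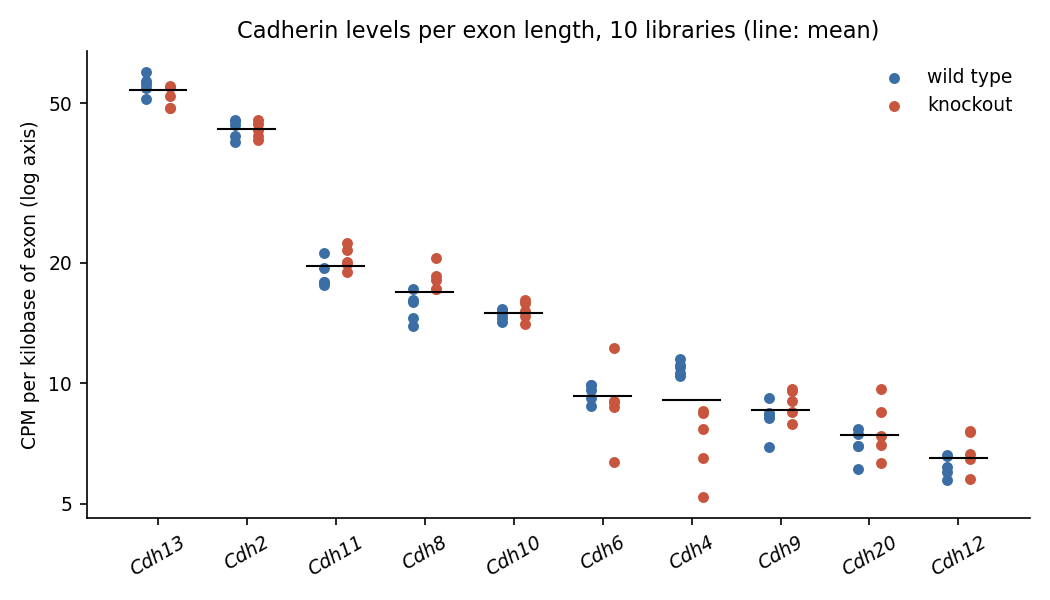
Level of each cadherin gene in CPM per kilobase of exon (log axis), with 1 point for each library, wild type in blue and knockout in red, and a line at the mean of 10 libraries. Cdh13 and Cdh2 stand above the others, and Cdh4 is the gene whose genotypes separate most widely.

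Cdh4 encodes R-cadherin, a type I cadherin of forebrain compartments and axon tracts. In wild type it was measured at 75.4, 72.1, 78.0, 74.7 and 71.0 CPM in replicates 2, 4, 5, 6 and 7. In knockout it was measured at 57.8, 44.3, 57.1, 52.1 and 35.4 CPM in replicates 1, 3, 5, 6 and 8. Every knockout library lay below every wild-type library, and the gap between the lowest wild-type and the highest knockout library, 71.0 against 57.8 CPM, was wider than the whole wild-type range. The mean was 74.2 ± 2.79 CPM in wild type against 49.3 ± 9.49 CPM in knockout (SD, n = 5 for either), which corresponds to -0.59 (SE 0.11) on the log2 scale and a fold of 0.664 (95% interval 0.565 to 0.780). The knockout libraries also varied more, with a coefficient of variation of 19.2% against 3.76% in wild type. These values belong to the contrast that brought the genes together, so they are a description. In bulk cortex, fewer cells that express Cdh4 and less Cdh4 RNA per cell cannot be told apart.

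Cdh4 was the single cadherin of the 10 past the edgeR test over all genes (adjusted p = 0.0366 by edgeR, threshold 0.05). Over the 15488 tested genes 0.381% passed, 0.194% lower and 0.187% higher in knockout. 6 of the 10 members had a positive log2 fold change with a median of 0.08, against 7610 positive values and a median of -0.0021 over all tested genes. The groups of libraries did not overlap for 2 members, Cdh4 and Cdh8, and neither did those of 1.83% of all tested genes. Since the genes were chosen with this contrast known, no reading is drawn from these shares. In fits that left out 1 library each, Cdh4 passed in 3 of 10, those without knockout replicate 1, 5 or 8, and the log2 fold change stayed between -0.65 and -0.49. It did not pass with the level of Y-linked genes as a covariate (adjusted p = 0.0801) or with the replicate number as a block (adjusted p = 0.146), both by edgeR. Only the numbers 5 and 6 occur in both genotypes. The block estimate therefore rests on the libraries with these numbers and cannot speak for the others.

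**Figure D2:**
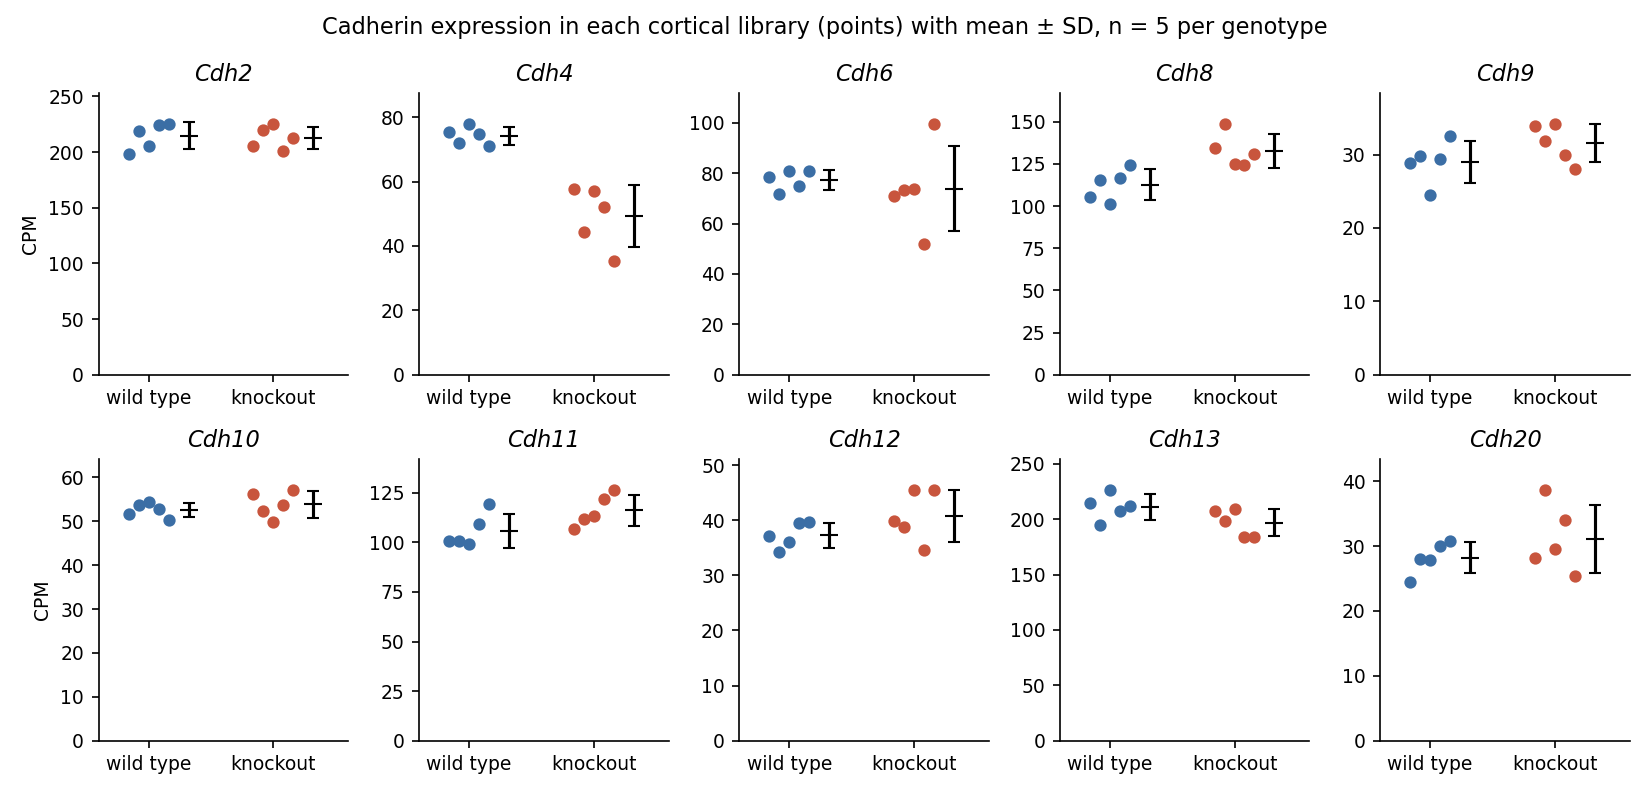
CPM of each cadherin gene in the 5 wild-type (blue) and 5 knockout (red) libraries in replicate order, with the mean and SD in black and axes that start at 0. Cdh4 is lower in all 5 knockout libraries, and Cdh6 spreads from 51.9 to 99.7 CPM within the knockout.

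Cdh8, a type II cadherin that marks frontal and visual areas of the developing cortex, lay on the other side. Its wild-type libraries held 105, 115, 101, 117 and 124 CPM, and its knockout libraries held 135, 149, 125, 125 and 131 CPM, in replicate order. All knockout libraries were above all wild-type libraries, by a narrow margin of 125 against 124 CPM at the closest point. The log2 fold change was 0.24 (SE 0.059), a fold of 1.18 (95% interval 1.08 to 1.28). It did not pass the edgeR test, and it passed in 4 of 23 alternative fits.

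Cdh2, the closest relative of Cdh4, had nearly equal levels, with 198 to 225 CPM among wild-type animals against 201 to 225 CPM in the knockout and a fold of 0.991 (95% interval 0.925 to 1.06). Cdh13 was at 195 to 227 CPM among wild-type animals against 184 to 209 CPM in the knockout, a fold of 0.932 (95% interval 0.867 to 1.001). The groups of these genes overlapped.

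Among the remaining type II genes, Cdh11, which neurons share with meningeal and other mesenchymal cells, was at 99.1 to 120 CPM among wild-type animals against 107 to 127 CPM in the knockout (log2 fold change 0.13, SE 0.058). On the log2 scale the estimate for Cdh12 was 0.13 (SE 0.077), for Cdh20 0.14 (SE 0.096), for Cdh9 0.12 (SE 0.082) and for Cdh10 0.04 (SE 0.060). Cdh6, known from the auditory and somatosensory cortex, had a log2 fold change of -0.07 (SE 0.14), the largest standard error of the 10. In all 6 of these genes the libraries of the genotypes overlapped.

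**Figure D3:**
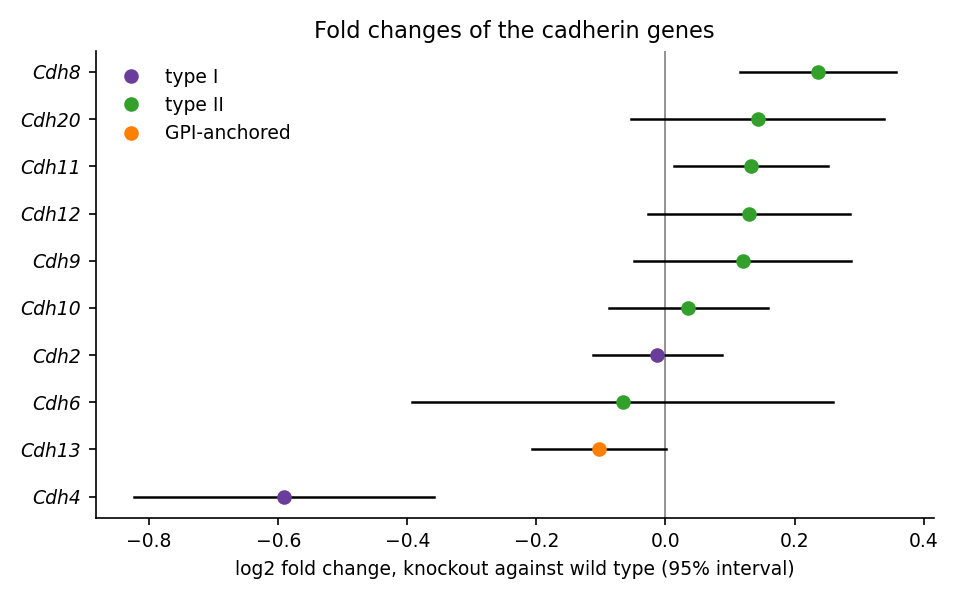
Log2 fold change of each cadherin gene, knockout against wild type, with its 95% interval (line), coloured by class. Cdh4 lies at -0.59 and the other 9 genes between -0.10 and 0.24.

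The summed level of the 10 genes was about the same in both genotypes, at 190 ± 5.49 CPM per kilobase in wild type and 189 ± 5.60 in knockout (SD, n = 5 each). Cdh4 made up 5.28% to 6.06% of that sum in wild type and 2.78% to 4.47% in knockout. The type II genes together made up 40.4% to 43.4% in wild type and 43.8% to 48.4% in knockout. Cdh13 made up 27.8% to 31.6% in wild type and 26.0% to 28.8% in knockout. Shares of 1 sum depend on each other, so a larger type II share does not by itself measure a rise of these genes. No type II gene passed the edgeR test. Per kilobase, Cdh4 stood at 0.253 ± 0.0223 of the Cdh2 level in wild type and 0.169 ± 0.0343 in knockout. The ratio ranged from 0.229 to 0.277 in wild type and from 0.121 to 0.205 in knockout, so the genotypes did not overlap. It restates the lower Cdh4, known when the genes were chosen, beside a nearly equal Cdh2, and is not a separate result.

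None of the 5 lists of genes that work with the cadherins or are related to them held a call by edgeR, DESeq2 or limma-voom. Over all tested genes 1349, or 8.71%, had an unadjusted p under 0.05 by edgeR, beside which the unadjusted counts of each list can be set. Of 17 catenin and junction partner genes, 0 passed the edgeR test, 1 had an unadjusted p under 0.05, and DESeq2 and limma-voom called 0. The gene with the smallest p was Pkp4, which encodes a p120 family member, with a wild-type mean of 235 ± 10.9 CPM and a knockout mean of 257 ± 15.4 CPM (log2 fold change 0.13, SE 0.049, adjusted p = 0.351). For Ctnnb1, the beta-catenin gene, the estimate was -0.07 (SE 0.046), and for Ctnnd1, the p120 catenin gene, -0.07 (SE 0.057). The list median was -0.03. Of 14 genes for proteases that process or shed adhesion proteins, 0 passed by edgeR, DESeq2 or limma-voom and 0 had an unadjusted p under 0.05. Their median was 0.02, and Pcsk5, a proprotein convertase gene, had the smallest p (log2 fold change 0.19, SE 0.096).

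Of 10 other classical and related cadherins, 7 were tested, 0 passed by edgeR, DESeq2 or limma-voom, and 2 had an unadjusted p under 0.05. Positive estimates were seen in 2 of the 7, and the median was -0.09. The summed level of the list was 125 to 134 CPM among wild-type animals against 97.1 to 120 CPM in the knockout, without overlap. Cdh24, another type II gene, had the smallest p, with a wild-type mean of 20.4 ± 2.81 CPM and a knockout mean of 16.3 ± 1.31 CPM (log2 fold change -0.32, SE 0.10, adjusted p = 0.252 by edgeR). Of 10 delta protocadherins, a family of non-classical cadherins, 0 passed by any of the 3 tools, 2 had an unadjusted p under 0.05, and 7 had negative estimates (median -0.07). Pcdh7 had the smallest p, and its groups did not overlap, at 155 to 168 CPM among wild-type animals against 138 to 151 CPM in the knockout (log2 fold change -0.14, SE 0.046, adjusted p = 0.305 by edgeR). Of 15 large cadherins and calsyntenins, 0 passed by any of the 3 tools, 4 had an unadjusted p under 0.05 and 13 had negative estimates (median -0.14). Fat4, a giant cadherin of planar polarity, had the smallest p (log2 fold change -0.24, SE 0.088, adjusted p = 0.400 by edgeR).

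Of 17 genes with graded or area-restricted expression in cortex, 1 fell and 1 rose by edgeR, DESeq2 called 2 and limma-voom 3, and 8 had an unadjusted p under 0.05. Lmo3, a transcriptional cofactor gene, fell by 0.39 on the log2 scale (SE 0.051), and its relative Lmo4 rose by 0.23 (SE 0.047), and the median of the list was -0.01. Cyp26b1, named after its values were seen, encodes an enzyme that degrades retinoic acid. It was at 26.5 to 33.8 CPM among wild-type animals against 11.4 to 23.8 CPM in the knockout (log2 fold change -0.73, SE 0.19), and its edgeR adjusted p = 0.228 missed the threshold. Its lowest knockout libraries were replicate 8 with 11.4 CPM and replicate 3 with 14.6 CPM, the same libraries that were lowest for Cdh4.

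Some markers of striatum and of choroid plexus and ependyma were lower in knockout. Of 20 striatal markers, 2 fell by edgeR, Six3 and Penk, while DESeq2 called 5 and limma-voom 4. In this list 16 had an unadjusted p under 0.05, 18 had negative estimates and the median was -0.48. Their summed level was 491 to 634 CPM among wild-type animals against 408 to 529 CPM in the knockout, with Isl1 at 0 in at least 1 library. Of 18 choroid plexus and ependyma markers, 2 fell by edgeR, Clic6 and Tmem72, while DESeq2 called 3 and limma-voom 4. In this list 9 had an unadjusted p under 0.05, 17 had negative estimates and the median was -0.82. Their sum was 275 to 338 CPM among wild-type animals against 29.8 to 252 CPM in the knockout, with Ttr, Otx2, Tmem212 and Ak7 at 0 in at least 1 library. Ttr averaged 255 CPM of a mean sum of 315 CPM in wild type. It was at 213 to 278 CPM in wild-type libraries, and at 200, 0, 0.49, 5.07 and 80.6 CPM in knockout replicates 1, 3, 5, 6 and 8. The mean log2 level of the list was 1.69 in knockout replicate 1 and -0.27 in replicate 3, so the fall differed between knockout libraries. With the mean log2 level of the striatal markers as a covariate the log2 fold change of Cdh4 was -0.72, and with that of the choroid markers it was -0.53, and neither fit called it. The genotypes did not overlap in either covariate (striatal 3.39 to 4.10 in wild type and 2.90 to 3.38 in knockout, choroid 1.88 to 2.02 and -0.27 to 1.69). Both fits called 0 of 15488 genes, so they cannot tell whether the Cdh4 call depends on these markers. Of 15 interneuron markers 14 were tested, 5 had an unadjusted p under 0.05 and 1, Slc32a1, fell by edgeR and was the 1 call of DESeq2, limma-voom also calling 1, with a summed level of 733 to 813 CPM among wild-type animals against 619 to 740 CPM in the knockout. In 9 further marker lists (meningeal, vascular, astrocyte, oligodendrocyte, microglia, upper and deep layer, thalamic and hippocampal) edgeR, DESeq2 and limma-voom called 0 genes, with 0 to 3 genes a list at an unadjusted p under 0.05 except in the deep layer list, where 8 of 13 had one. The part of the markers in the Cdh4 values was not tested further.

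Covariation was measured between animals of the same genotype, as correlations of log2 CPM over the 10 libraries after the mean of each genotype was removed. None of the 45 pairs among the 10 genes passed an exact permutation test after Benjamini-Hochberg adjustment. 1 pair had an unadjusted p under 0.05 by Pearson's r and 2 by Spearman's rho. The coefficients ran from -0.62 to 0.78 with a median of 0.11, and 25 of 45 were positive. Among the most similar proteins, Cdh6 and Cdh10 (73.6% identity) had r = 0.25, Cdh6 and Cdh9 (72.2%) had r = -0.21, and Cdh9 and Cdh10 (71.1%) had r = -0.60. Cdh8 and Cdh11 (67.7%) had r = 0.32, and Cdh2 and Cdh4 (67.6%) had r = -0.15.

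**Figure D4:**
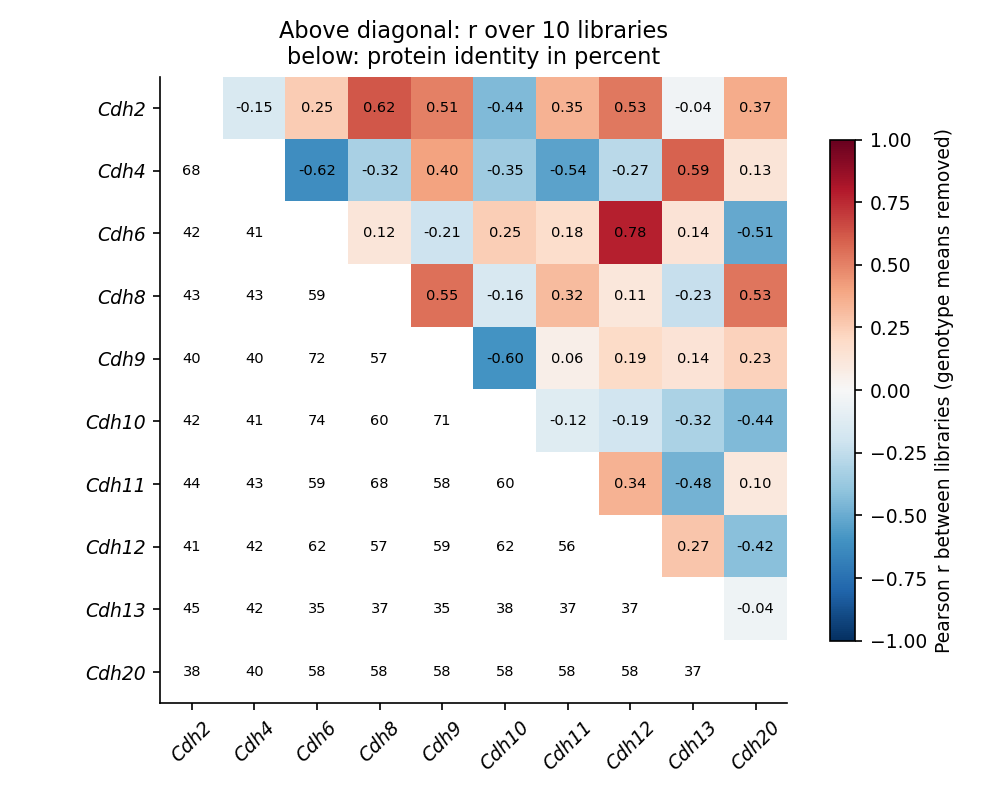
Pearson r between the log2 CPM of each pair of cadherin genes over 10 libraries with genotype means removed (above the diagonal, coloured), and percent identity of their proteins (below). The strongest positive value is 0.78 for Cdh6 and Cdh12, and the strongest negative value is -0.62 for Cdh4 and Cdh6.

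Cdh6 and Cdh12 were the pair with the smallest p (r = 0.78, exact permutation p = 0.0303, adjusted p = 0.736; rho = 0.70, exact permutation p = 0.0438, adjusted p = 0.675). Without the libraries farthest out for Cdh6, knockout replicates 6 and 8, r was 0.37, so the relation rests on these libraries. Cdh6 was at 71.7 to 81.0 CPM in wild type, and in knockout at 71.0, 73.4, 73.6, 51.9 and 99.7 CPM in replicate order. Replicate 6 was lowest and replicate 8 highest of all 10 libraries. Knockout replicate 8 had the lowest Cdh4 and the highest Cdh6 (r of the pair = -0.62, exact permutation p = 0.264, adjusted p = 0.848; rho = -0.31, exact permutation p = 0.463, adjusted p = 0.856). Without knockout replicates 1 and 8, r was -0.21.

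The same libraries stood apart for upper layer genes. The mean log2 CPM of 12 upper layer markers was 5.70 to 5.82 in wild type and 5.50 in replicate 6 and 6.18 in replicate 8 of the knockout. Cdh6 followed it with r = 0.95 (exact permutation p = 0.0237, adjusted p = 0.471; rho = 0.60, exact permutation p = 0.0843, adjusted p = 0.724). Without knockout replicates 6 and 8, r was 0.39. Rorb, a layer 4 transcription factor gene named after its values were seen, was at 53.7 to 61.6 CPM in wild type, 32.2 CPM in knockout replicate 6 and 90.1 CPM in knockout replicate 8. Nr2f2, a transcription factor gene that is graded across the cortex and also seen after the fact, was at 28.5 CPM in knockout replicate 8 against 62.3 to 74.1 CPM in the other 4. Without knockout replicate 8 the Cdh4 log2 fold change was -0.49, and without replicate 6 it was -0.61.

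**Figure D5:**
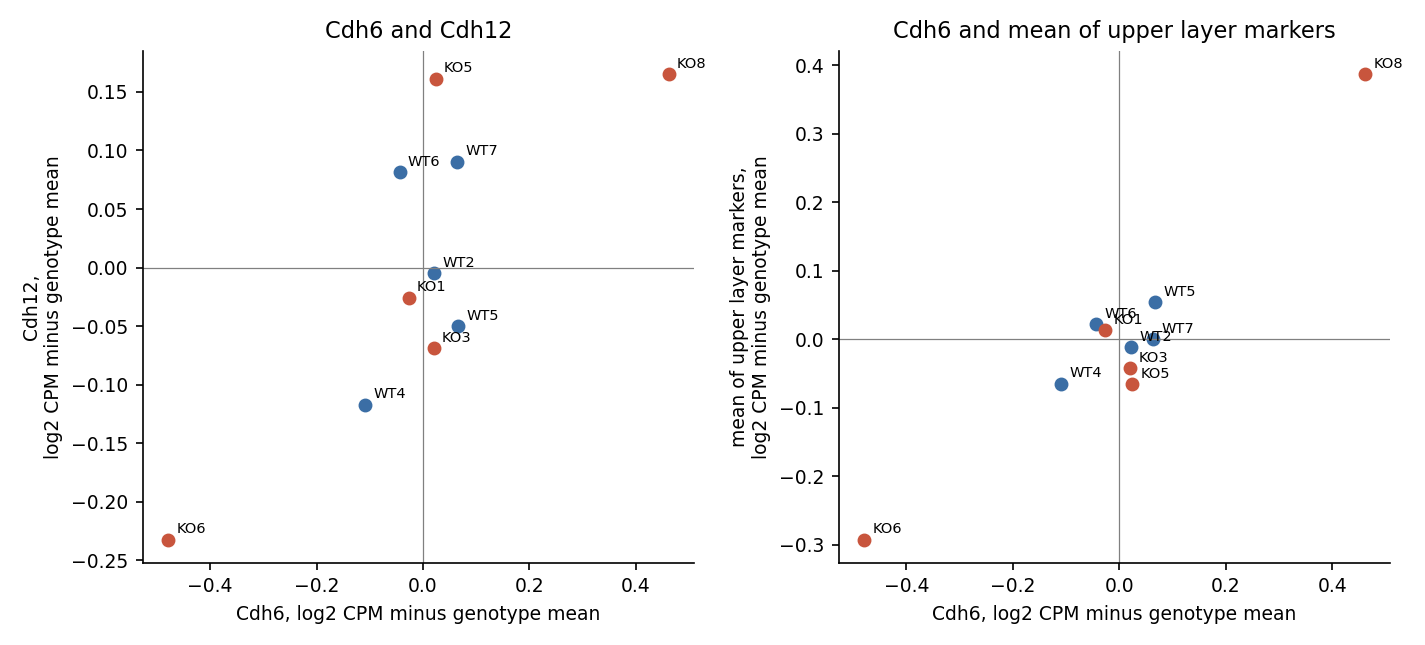
Deviation of Cdh6 from its genotype mean (log2 CPM) against that of Cdh12 (left) and of the mean of 12 upper layer markers (right), with 1 labelled point for each library. Knockout replicates 6 and 8 lie at opposite ends and the other 8 libraries lie near the centre of the Cdh6 axis.

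Over 120 pairs of a cadherin with 1 of 12 marker lists, 0 passed the exact permutation test after adjustment, and 8 had an unadjusted p under 0.05 by r and 6 by rho. Cdh10 and the oligodendrocyte lineage markers had the smallest p (r = 0.82, exact permutation p = 0.00465, adjusted p = 0.471; rho = 0.79, exact permutation p = 0.0137, adjusted p = 0.685), and r was 0.72 without the libraries farthest out for Cdh10. Cdh9 and the striatal markers had r = -0.80 (exact permutation p = 0.0199, adjusted p = 0.471; rho = -0.59, exact permutation p = 0.101, adjusted p = 0.724), which was -0.27 without wild-type replicate 5 and knockout replicate 8. Cdh8 and the thalamic markers had r = -0.72 (exact permutation p = 0.0275, adjusted p = 0.471; rho = -0.73, exact permutation p = 0.0285, adjusted p = 0.685), and -0.70 without wild-type replicate 5 and knockout replicate 3.

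For Cdh4 the striatal list gave r = -0.27 (exact permutation p = 0.461, adjusted p = 0.952; rho = 0.03, exact permutation p = 0.944, adjusted p = 1) and r = 0.17 without knockout replicates 1 and 8. The choroid and ependyma list gave r = 0.08 (exact permutation p = 0.923, adjusted p = 0.996; rho = -0.01, exact permutation p = 1, adjusted p = 1) and r = 0.29 without the same libraries. Within wild type the striatal r was 0.93 and within knockout -0.68, so the pooled value joins opposite directions. Of the 12 lists, the hippocampal list had the smallest p with Cdh4 (r = 0.71, exact permutation p = 0.0731, adjusted p = 0.699, and rho = 0.75, exact permutation p = 0.0485, adjusted p = 0.724). Its r was 0.68 without knockout replicates 1 and 8. The upper layer, interneuron and thalamic lists gave r = -0.68, 0.59 and 0.53, and did not pass either.

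The genes whose library pattern was most like Cdh4, by the highest r of log2 CPM over the 10 libraries with genotype means removed, were Fars2 (r = 0.97), Myh7 (0.96), Unc5a (0.96), Cracdl (0.96) and Col25a1 (0.95), out of 11965 genes with a mean of at least 5 CPM. Fars2 encodes a mitochondrial phenylalanine-tRNA synthetase, Unc5a a netrin receptor, Myh7 a myosin heavy chain and Col25a1 a membrane-bound collagen. The genes nearest to Cdh6 were Tbc1d5 (0.96) and Plcb4 (0.96), and the gene nearest to Cdh12 was Dzip3 (0.97). Cdh2 was nearest to Rgs5 (0.98) and Ankfy1 (0.95), Cdh8 to Kbtbd4 (0.96) and Sec62 (0.94), and Cdh20 to Fastkd3 (0.97) and Dcn (0.94). Cdh9 was nearest to Plagl1 (0.93) and Vgll4 (0.93), Cdh10 to Larp7 (0.94) and Star (0.94), Cdh11 to Rtn4r (0.92) and Pank1 (0.90), and Cdh13 to Pld1 (0.91) and Lrrc4b (0.90). These are the highest of many coefficients over few libraries that share their depth scaling, and they are given as a description.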

How the data were processed

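The authors deposited 1 table of raw counts per gene (Entrez identifiers) for 10 libraries. HISAT2, featureCounts and mm39 are named per the submitters' processing notes. Their versions, the annotation and the strand setting were not given in the sources used. Genes overlapping the exons of Cdh8 (Gm15679) and Cdh9 (Gm49127) therefore cannot be told apart from them where reads overlap.

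Symbols came from a RefSeq table (GRCm38.p6; 30648 of 30935 identifiers matched) and gene lengths, coding sequences and identities (global alignment, Biopython 1.88) from GENCODE M21 (GRCm38); lengths are exon unions of protein-coding transcripts. Counts were filtered (filterByExpr), scaled (TMM) and compared over all genes with the robust quasi-likelihood test of edgeR 4.0.16 in R 4.3.3, with Benjamini-Hochberg adjustment, 5 libraries per genotype. Standard errors come from the F statistic. Log2 CPM used a prior count of 2. Correlations were tested exactly over 14400 orders of libraries within genotype, adjusted over 45 member pairs and over 120 pairs with marker lists. Alternatives used DESeq2 1.42.0 and limma 3.58.1. Scripts were tested on simulated data.

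Samples were grouped by title, and all were used. The design text calls the samples of a genotype independent; library pairs of a genotype differed beyond sampling noise (chi-square per degree of freedom 4.10 to 13.9). The genotypes share the numbers 5 and 6; deviations from the group means correlated at -0.03 and -0.06 for these, so the numbers were not taken as pairs. The members and gene lists were chosen with earlier results of these data known. Genes named are the 10 members, of each further list those past the threshold or else the one with the smallest p, and the genes most like each member. Rorb, Cyp26b1, Nr2f2, Cdh22, Ctnnb1 and Ctnnd1, and marker genes at 0, were named after their values were seen. Some genes that meet this rule are not reported here.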

Additional observations from a re-analysis of the deposited data

How the results depend on the processing

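The log2 fold change of Cdh4 was negative in all 23 alternatives, and 12 of them ended its edgeR call. It stayed past the threshold in the other 11. Among these were the DESeq2 Wald test (adjusted p = 5.43e-06), limma-voom (adjusted p = 0.0041) and edgeR with non-robust dispersions (adjusted p = 0.0033). The call was lost at -0.58 with a Y-linked covariate (adjusted p = 0.0801), -0.72 with the striatal and -0.53 with the choroid covariate, and -0.67 with only knockout replicates 1 and 8. Knockout replicates 1 and 8 were those with the highest Ttr, at 200 and 80.6 CPM, and the fit left out those with 5.07 CPM or less. With 1 library left out the log2 fold change of Cdh4 was between -0.65 and -0.49, and 7 of these 10 fits lost the call. With the replicate number as a replicate block, the log2 fold change of Cdh4 was -0.49, the call was lost (adjusted p = 0.146) and 27 genes passed. That fit leaves 1 residual degree of freedom and rests on the libraries numbered 5 and 6, the numbers that both genotypes share. The count of 59 genes past the threshold was 171 with no filter, 124 with DESeq2, 35 with the Y-linked covariate, 12 with only knockout replicates 1 and 8, and between 15 (without wild-type replicate 2) and 182 (without knockout replicate 8) with 1 library left out. It was 0 by edgeR with the striatal covariate (584 genes at an unadjusted p under 0.05) and 0 with the choroid covariate (754). The genotypes do not overlap in either covariate, so these fits can end any call. With only knockout replicates 1 and 8, or 1 library fewer, the smaller number of libraries can also end calls; otherwise the cause was not tested. Cdh8 passed with no filter, with DESeq2 and without wild-type replicate 7 or knockout replicate 8. As a share of CPM not divided by length, Cdh4 made up 7.88% of the 10 genes in wild type and 5.26% in knockout. The counts of correlated pairs stayed at 0 in every alternative run. The exon union of all transcripts was added after the data were seen. The counting error was largest for Cdh20, at 4.28%. For Cdh10 the counting error of 3.20% was as large as its spread of 3.05% between wild-type libraries, while its spread between knockout libraries was 5.61%.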
